A study of Mus musculus with 5 samples.

Results

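Double-strand break repair was followed here through 32 genes of the 22869 gene symbols in the count table. They were listed by function, with earlier results of these data known. All 32 were found, and all 32 passed the filter on low counts. RNA was sequenced from intervillus areas cut by laser from the proximal jejunum of mice at postnatal day 0. These areas lie between the villi of the newborn gut, and they held transcripts of other tissues beside epithelium (given below). There were 3 control libraries (genotype Dnmt1 L/+, a single floxed allele, with no Cre named) and 2 mutant libraries (Dnmt1 L/L; VillinCre), in which both Dnmt1 alleles are floxed and Cre is driven by the villin promoter of gut epithelium. Dnmt1 encodes the methyltransferase that restores DNA methylation after replication. Mutant areas were picked as negative for the proliferation protein Ki67 and control areas, from littermates, as positive, so genotype and the choice of areas cannot be told apart. The labels do not say whether each library came from its own mouse, and the p-values therefore measure the spread between libraries, which may be technical.

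A double-strand break severs both strands of the DNA helix. The MRN complex (MRE11, RAD50 and NBS1) binds the ends and activates the kinase ATM, which phosphorylates the histone variant H2A.X around the break, and MDC1, RNF8, RNF168 and 53BP1 gather on that mark. Ends are then either joined directly by Ku, DNA-PK and ligase IV, or cut back to single strands and repaired from the sister chromatid with BRCA1, PALB2 and BRCA2. Recombination needs a replicated sister and many of its genes are transcribed mainly in dividing cells, whereas end joining works in every phase of the cell cycle.

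Most break repair transcripts were lower in the mutant areas by a modest amount, and 3 of 32 passed the test. H2afx, the gene of H2A.X, fell by 49.2%, Rad54b, a motor protein of recombination, by 49.6%, and Topbp1, an activator of the kinase ATR, by 31.5%. These 3 falls compare with 4.17% of the 14572 genes tested that were called lower (edgeR, Benjamini-Hochberg adjusted p under 0.05). None of the 32 was called higher by edgeR, against 6.11% of all genes. At an unadjusted p under 0.05 there were 13 members lower and 0 higher, and over all genes tested 12.1% were lower and 13.6% higher. DESeq2 and limma-voom likewise called 0 members higher. A negative log2 fold change was found in 28 members (50.8% of all genes), and the exceptions were Brca1, Rad51c, Xrcc5 and Fanci. The median log2 fold change of the 32 was -0.32, where that of all genes tested was -0.01. In 19 members both mutant libraries lay below all controls (21.8% of all genes), and in 1, Rad51c, both lay above (21.7% of all genes). On the deposited FPKM the count of members with both mutants below all controls was 6. The share of all genes on that scale was not counted, so this 6 cannot be set against the 21.8%. Mutant areas were chosen as Ki67-negative, so none of these counts is independent of that choice. In bulk RNA, fewer cells of a kind and less RNA per cell cannot be told apart.

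**Figure D1:**
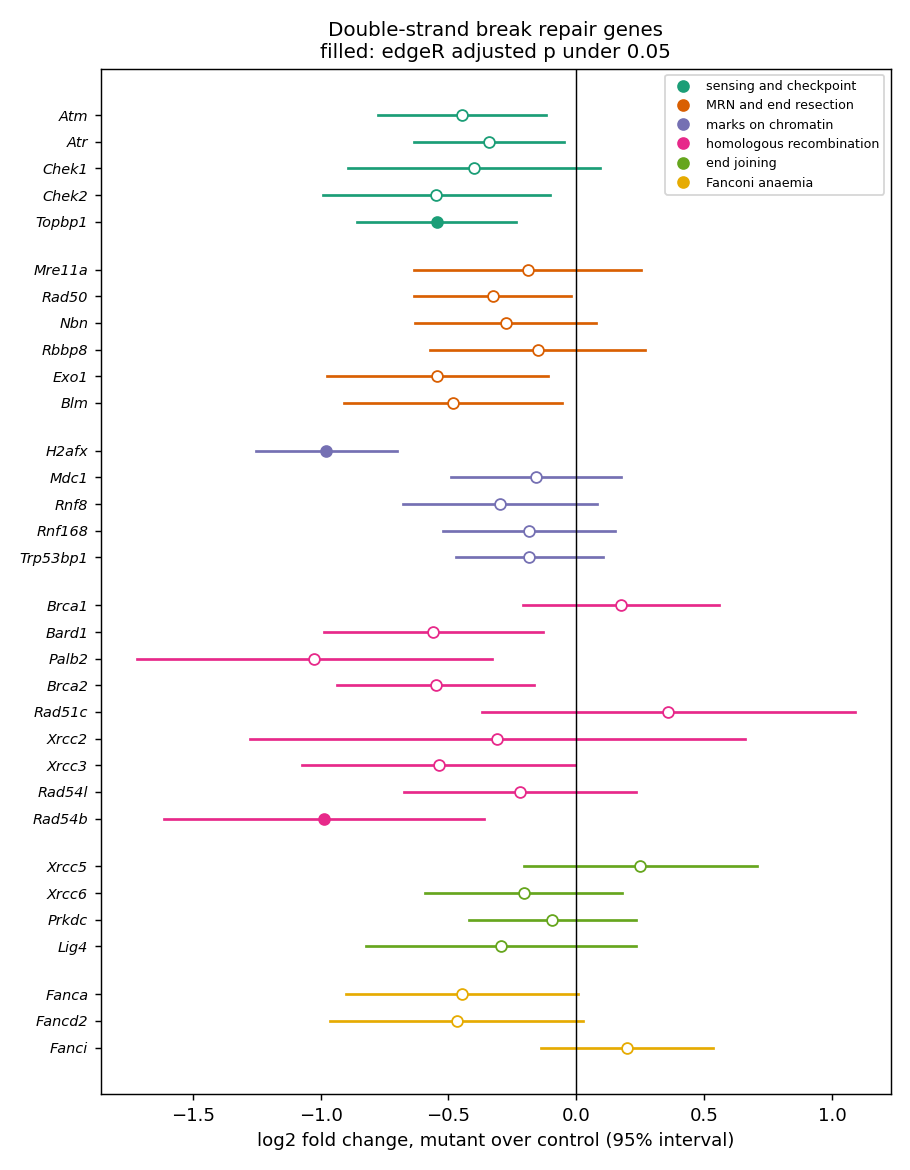
Log2 fold change of each break repair gene, mutant over control, with its 95% interval from the edgeR fit; genes are grouped by role and filled circles passed an adjusted p under 0.05. H2afx has the interval farthest from 0, and Brca1, Rad51c, Xrcc5 and Fanci lie to the right of it.

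The controls were not uniform. Control 3 had the lowest CPM (counts scaled to a common library size after TMM normalization) of the 3 controls in 22 of the 32 members, and in 5199 of 14572 genes overall. As the median over members of the log2 ratio to the control mean, control 1 stood at 0.04, control 2 at 0.03 and control 3 at -0.18, while mutant 4 was at -0.30 and mutant 6 at -0.42. On this scale control 3 lay between the other controls and the mutants. On the deposited FPKM the members stood at -0.27 in control 3, beside -0.28 in each mutant. All genes on that scale stood at -0.14 in control 3 and at -0.08 and -0.05 in mutants 4 and 6. Control 3 was thus the lowest library over all genes on FPKM, so a low control 3 there is not particular to the members. In the members it was level with the mutants, whereas over all genes it lay below them. For DNA replication genes the 3 controls gave 0.07, 0.16 and -0.26, and mutants 4 and 6 gave -0.39 and -0.40, which places control 3 low there too. Without control 3, 6 members fell (Atm, Brca2 and Chek2 in addition to H2afx, Rad54b and Topbp1). Without control 1 or without mutant 6 only H2afx did.

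**Figure D2:**
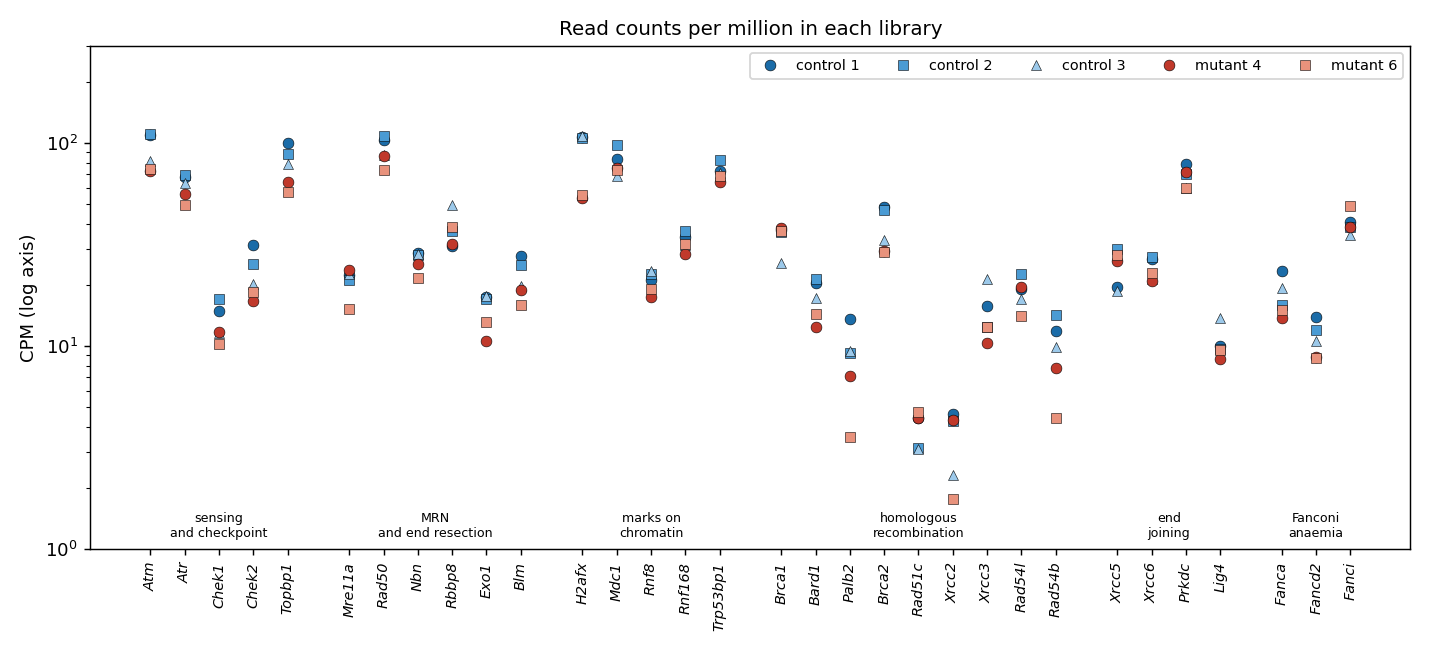
CPM of each break repair gene in each library on a log axis, with controls in blue and mutants in red. H2afx lies at 106 to 108 CPM in the controls and at 53.3 and 55.1 CPM in the mutants, and control 3 (triangles) is the lowest control in 22 genes.

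Levels between genes were compared on the deposited FPKM, which divide reads by transcript length. In controls H2afx was the most abundant member at 75.4 ± 6.92 FPKM (SD, n = 3). Rad50 came next at 18.9 ± 3.45 FPKM and Topbp1 at 15.5 ± 3.08 FPKM, and both were far below H2afx. Rad50 was the higher of these 2 in each control, though their spreads between libraries overlapped. The order ended with Rad51c at 1.31 ± 0.394 FPKM and Xrcc2 at 1.04 ± 0.508 FPKM, both of the recombination group. Rad51c and Xrcc2 did not differ beyond their spread, and Xrcc2 was the higher in control 2. The median member had 6.61 FPKM in controls, close to the 6.48 FPKM of all genes tested. Among the recombination genes Xrcc3, Rad54l and Brca1 (6.25 ± 1.94, 5.75 ± 0.496 and 5.28 ± 1.80 FPKM) could not be ordered within their spread. The ligase gene of end joining, Lig4, had 2.39 ± 0.523 FPKM, and Xrcc6 of Ku had 11.6 ± 2.84 FPKM.

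**Figure D3:**
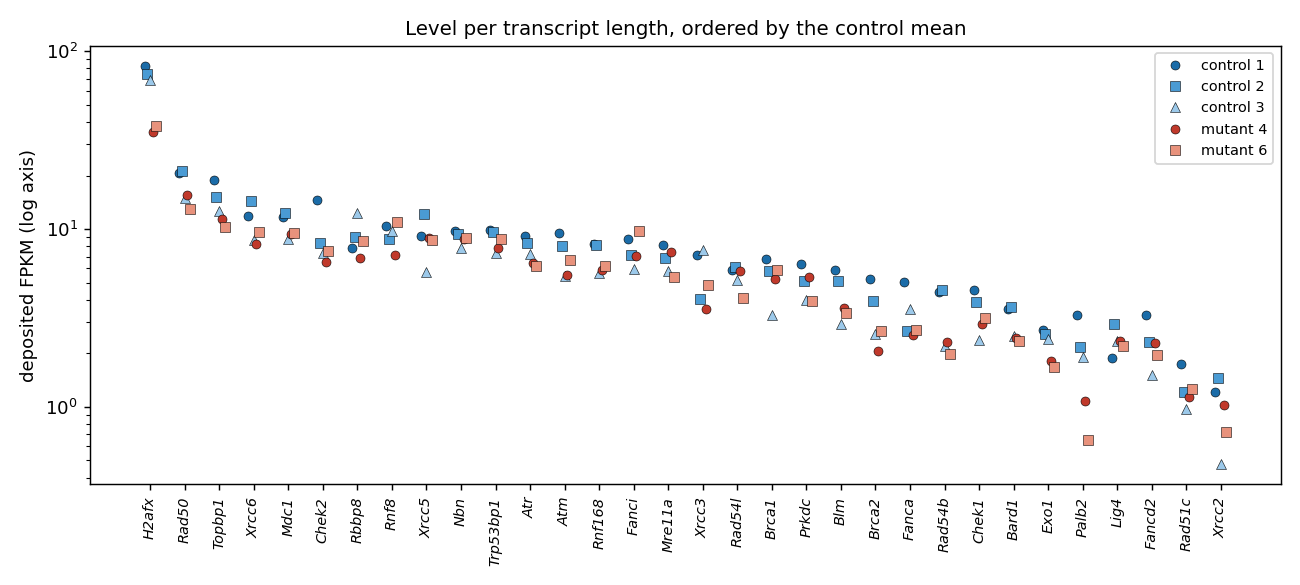
Deposited FPKM of each break repair gene in each library on a log axis, ordered by the control mean. H2afx leads at 75.4 FPKM, and Rad51c and Xrcc2 end the order near 1 FPKM.

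Promoter sequences of 23 of the 32 members were found in a RefSeq table for mouse (build GRCm38.p6; 250 bases before and 50 after the annotated start, first entry per gene). These 23 were searched because E2F factors are known to switch on genes at the entry into DNA synthesis. The other members had no entry and were not searched, among them H2afx and Rad54b, which were called lower. The strings searched were TTTCCCGC, TTTGGCGC, TTTCGCGC and TTTGCCGC on both strands, and 7 members held 1 of them (30.4%), namely Chek2, Topbp1, Mdc1, Bard1, Brca2, Rad51c and Xrcc6. Such a string was in 2.32% of all 27025 genes of the table, and in 3.87% of the 10248 of them that were tested here. TTTGAA, the core of the cell cycle homology region, was in 2 member promoters (8.70%; 18.1% of all), and CCAAT in 13 (56.5%; 37.9% of all). None of these strings contains another. A match describes letters only. The windows around the match (capitals), 5′ to 3′ on the gene's strand, are given for 6 members, 1 called lower and 5 not. They lie at chr9:103305174-103305229 (Topbp1, plus strand, first matched base 129 before the start), chr5:110839807-110839862 (Chek2, plus, 152), chr1:71103150-71103205 (Bard1, minus, 209), chr5:150522429-150522484 (Brca2, plus, 168), chr15:82016299-82016354 (Xrcc6, plus, 46) and chr17:35841458-35841497 (Mdc1, plus, 16).
Topbp1: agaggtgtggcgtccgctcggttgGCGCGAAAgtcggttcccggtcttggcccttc
Chek2: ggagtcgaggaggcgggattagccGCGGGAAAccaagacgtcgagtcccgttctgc
Bard1: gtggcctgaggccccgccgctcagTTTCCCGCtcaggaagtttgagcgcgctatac
Brca2: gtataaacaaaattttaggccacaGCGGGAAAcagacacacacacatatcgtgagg
Xrcc6: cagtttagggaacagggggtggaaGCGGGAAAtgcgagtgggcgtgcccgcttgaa
Mdc1: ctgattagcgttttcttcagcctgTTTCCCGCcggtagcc

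Among the 7 with the string, Topbp1 fell, both mutants lay below all controls in Chek2, Bard1 and Brca2, the groups overlapped in Mdc1 and Xrcc6, and both mutants lay above all controls in Rad51c. The log2 fold change was -0.55 in Topbp1, Chek2 and Brca2 and -0.56 in Bard1, of which only Topbp1 passed. It was -0.16 in Mdc1, -0.21 in Xrcc6 and 0.36 in Rad51c. Over all genes tested, both mutants lay below all controls in 21.8%, and among the 32 members in 19. Differences between members, and between those with and without the string, were not tested. The match in Rad51c lay after the start and is not shown.

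Of the 5 sensing and checkpoint genes 1 fell. All 5 had a negative log2 fold change (median -0.45), and 4 had both mutants below all controls. For this role and those that follow, the shares over all genes tested were 4.17% called lower and 50.8% with a negative log2 fold change. Both mutants lay below all controls in 21.8%. Topbp1 stood at 100, 87.8 and 78.9 CPM in controls 1, 2 and 3 and at 64.3 and 57.6 CPM in mutants 4 and 6. The groups did not overlap, and the log2 fold change was -0.55 ± 0.14 (SE; edgeR adjusted p = 0.0279). This fall no longer passed without control 1, mutant 4 or mutant 6, nor on the deposited FPKM (limma adjusted p = 0.254 to 0.362). Chek2, the effector kinase below ATM, was 31.4, 25.3 and 20.2 CPM in controls and 16.6 and 18.5 CPM in mutants, without overlap, and did not pass (-0.55 ± 0.21; edgeR adjusted p = 0.113). Atm itself was 109, 111 and 81.3 CPM against 72.9 and 74.4 CPM (-0.45 ± 0.15; edgeR adjusted p = 0.0807). Control 3 lay nearer to the mutants than to the other controls in Atm. Atr, the kinase that responds to single-stranded DNA, was 66.9 ± 3.27 CPM in controls against 52.8 ± 4.75 CPM in mutants (-0.34 ± 0.14; edgeR adjusted p = 0.134). Its effector Chek1 was 14.8, 17.1 and 11.5 CPM in controls and 11.8 and 10.3 CPM in mutants, the groups overlapped, and the 95% interval of the log2 fold change, -0.89 to 0.09, held 0.

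None of the genes that bind and cut back the ends passed. All 6 had a negative log2 fold change with a median of -0.30, and both mutants lay below all controls in 4 of them. Exo1, the exonuclease that extends resection, was nearly constant in controls at 17.4, 17.0 and 17.5 CPM and stood at 10.6 and 13.1 CPM in mutants (-0.54 ± 0.20; edgeR adjusted p = 0.104). Blm, the helicase that works with it, was 27.8, 25.2 and 19.8 CPM against 18.8 and 16.0 CPM (-0.48 ± 0.20; edgeR adjusted p = 0.145). Both genes showed the groups apart. Of the MRN genes, Rad50 had 99.9 ± 11.1 and 79.7 ± 9.21 CPM (-0.33 ± 0.14) and Nbn 28.4 ± 0.287 and 23.5 ± 2.68 CPM (-0.28 ± 0.16). Mre11a, the nuclease, differed between the mutants: 22.5, 21.1 and 22.7 CPM in controls, then 23.7 CPM in mutant 4 and 15.1 CPM in mutant 6. Its interval ran from -0.63 to 0.25. Rbbp8, whose product CtIP starts resection, ranged from 31.1 to 49.6 CPM in controls and held both mutants (31.7 and 38.7 CPM) within that range; its log2 fold change was -0.15 ± 0.20 (edgeR adjusted p = 0.673).

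On chromatin at the break, the histone gene fell and the 4 genes whose products gather there did not pass. H2afx had 107, 106 and 108 CPM in controls and 53.3 and 55.1 CPM in mutants, from 603 to 1942 counts a library. Both groups were tight and far apart, and the log2 fold change was -0.98 ± 0.13 (edgeR adjusted p = 0.0003). It was the only member that passed under all 15 alternative settings, with log2 fold changes from -1.05 to -0.94. Per length it fell from 75.4 ± 6.92 to 36.4 ± 1.97 FPKM. Mdc1, which binds the phosphorylated histone, was 83.0, 97.4 and 68.3 CPM against 74.9 and 73.8 CPM (-0.16 ± 0.15; edgeR adjusted p = 0.559). The mutants lay inside the control range. The ubiquitin ligases that act next gave log2 fold changes of -0.30 ± 0.18 (Rnf8) and -0.18 ± 0.16 (Rnf168). Trp53bp1, the gene of 53BP1, which protects ends from resection, was 75.3 ± 6.04 CPM in controls against 66.3 ± 2.98 CPM in mutants (-0.18 ± 0.13; edgeR adjusted p = 0.415). The 95% intervals of these 4 genes reached no lower than -0.68, while that of H2afx ended at -0.70. The difference between H2afx and these 4 genes was not tested.

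Of the 9 recombination genes 1 fell, 7 had a negative log2 fold change and the median was -0.54. Rad54b, a SWI2/SNF2-type DNA translocase, was 11.9, 14.2 and 9.93 CPM in controls and 7.78 and 4.40 CPM in mutants, from 57 to 240 counts a library. The groups did not overlap, and the log2 fold change was -0.99 ± 0.29 (edgeR adjusted p = 0.0458). That call was lost with upper-quartile normalization (edgeR adjusted p = 0.0559), with a filter of at least 5 CPM in 2 libraries (edgeR adjusted p = 0.0527), on FPKM, and without control 1, control 2 or mutant 6 (edgeR adjusted p = 0.13, 0.121 and 0.308). Its gene model overlaps Fsbp, and reads of the overlap cannot be assigned to 1 of them. The related Rad54l was 19.1, 22.5 and 17.0 CPM against 19.6 and 14.1 CPM, so its groups overlapped (-0.22 ± 0.21; edgeR adjusted p = 0.546). Palb2, which bridges BRCA1 and BRCA2, had the most negative log2 fold change of the 32 but did not pass. It was 13.5, 9.23 and 9.44 CPM in controls and 7.08 and 3.55 CPM in mutants, with 46 counts in mutant 6 (-1.03 ± 0.32; edgeR adjusted p = 0.0604; DESeq2 adjusted p = 0.042).

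Brca2, a central protein of recombination, was 48.4, 46.6 and 33.2 CPM in controls and 29.3 and 29.2 CPM in mutants. The mutants were alike and below all controls, with control 3 nearest to them (-0.55 ± 0.18; edgeR adjusted p = 0.0688). Bard1, the partner of BRCA1, had 20.4, 21.5 and 17.2 CPM against 12.4 and 14.4 CPM (-0.56 ± 0.20; edgeR adjusted p = 0.0925). Brca1 did not share this pattern: 37.4, 36.5 and 25.6 CPM in controls and 38.3 and 36.7 CPM in mutants (0.17 ± 0.18; edgeR adjusted p = 0.575). Mutants 4 and 6 matched controls 1 and 2, and control 3 was the low library. Its 95% interval was -0.21 to 0.56, and without control 3 its log2 fold change was 0.021. The last 3 recombination genes had wide intervals or few reads. Xrcc3 was 16.5 ± 4.53 CPM in controls against 11.3 ± 1.41 CPM in mutants (-0.54 ± 0.25), Xrcc2 3.74 ± 1.24 and 3.05 ± 1.81 CPM (-0.31 ± 0.45), and Rad51c 3.55 ± 0.743 and 4.56 ± 0.200 CPM (0.36 ± 0.34). With 23 to 84 counts a library in Xrcc2 and 44 to 80 in Rad51c, the 95% intervals were wide, from -1.28 to 0.66 and from -0.37 to 1.09. On the deposited FPKM the log2 fold change of Rad51c turned to -0.058.

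None of the 4 end-joining genes passed in edgeR, and 0 had an unadjusted p under 0.05; their median log2 fold change was -0.15, the nearest to 0 of the 6 roles. Neither DESeq2 nor limma-voom called any of the 4. Prkdc, the gene of the DNA-PK catalytic subunit, was 79.0, 70.6 and 60.1 CPM in controls and 71.6 and 59.6 CPM in mutants (-0.09 ± 0.15; 95% interval -0.42 to 0.23). The Ku subunit genes were 22.7 ± 6.30 and 27.0 ± 1.30 CPM for Xrcc5 (0.25 ± 0.21) and 25.1 ± 3.25 and 21.8 ± 1.33 CPM for Xrcc6 (-0.21 ± 0.18). In both, the groups overlapped. Lig4 had 9.96, 9.71 and 13.8 CPM in controls and 8.58 and 9.57 CPM in mutants (-0.29 ± 0.25; edgeR adjusted p = 0.484), with the mutants just under the controls. Among the other pathway genes counted below, 11 further end-joining genes had a median log2 fold change of -0.27 and 15 further recombination genes -0.31. A difference between end joining and recombination was not tested.

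The 3 Fanconi anaemia genes act where replication meets a crosslink. Fanca, part of the core ubiquitin ligase complex, was 19.6 ± 3.77 CPM in controls against 14.4 ± 0.943 CPM in mutants (-0.45 ± 0.21). Fancd2, a substrate of that ligase, was 13.9, 12.0 and 10.6 CPM against 8.85 and 8.72 CPM (-0.47 ± 0.23; edgeR adjusted p = 0.217), and its groups did not overlap. Fanci, which forms a clamp with FANCD2, was 40.7, 38.5 and 35.3 CPM against 38.5 and 49.0 CPM (0.20 ± 0.16; edgeR adjusted p = 0.455), with overlap. Fanci shares part of its gene model with Polg, the mitochondrial DNA polymerase, which was 68.2 ± 6.38 CPM in controls and 68.6 and 96.8 CPM in mutants 4 and 6. Mutant 6 was the highest library for both genes; the part of shared reads in this was not tested.

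Several members work as fixed partners, so the ratio of their reads was taken within each library, where library size cancels. The 6 pairs were set from known complexes after the values had been seen. Brca1 had 1.83, 1.70 and 1.49 reads per read of Bard1 in controls and 3.09 and 2.56 in mutants, 1.69-fold higher and without overlap. Fanci had 2.93, 3.22 and 3.34 reads per read of Fancd2 in controls and 4.35 and 5.62 in mutants (1.57-fold), and Xrcc5 had 0.730, 1.10 and 0.868 per read of Xrcc6 against 1.25 and 1.23. These 3 ratios were higher in both mutants than in any control. The share of other gene pairs set apart in this way was not counted. Brca1, Fanci and Xrcc5 were also among the members with a positive log2 fold change, so the ratios are not independent of those values. In the MRN complex the ratios overlapped: Mre11a to Rad50 was 1.07-fold and Nbn to Rad50 1.03-fold of the control value. The ratio of Palb2 to Brca2 also overlapped, with 0.198 to 0.284 in controls and 0.242 and 0.122 in mutants. With 3 libraries against 2 the smallest two-sided exact permutation p is 0.2, which Brca1 to Bard1, Fanci to Fancd2 and Xrcc5 to Xrcc6 each gave (0.4 adjusted over 6 pairs); the design cannot reach 0.05. On the deposited FPKM the first ratio was 1.46-fold higher without overlap, whereas that of Fanci to Fancd2 was 1.23-fold higher and overlapped. The ratio of Xrcc5 to Xrcc6 was 1.31-fold higher on FPKM and again did not overlap. For the 3 ratios that overlapped on counts the overlap depended on the scale: on FPKM the ratio of Mre11a to Rad50 was 1.20-fold, of Nbn to Rad50 1.30-fold and of Palb2 to Brca2 0.560-fold of the control value, each with the mutants outside the control range.

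**Figure D4:**
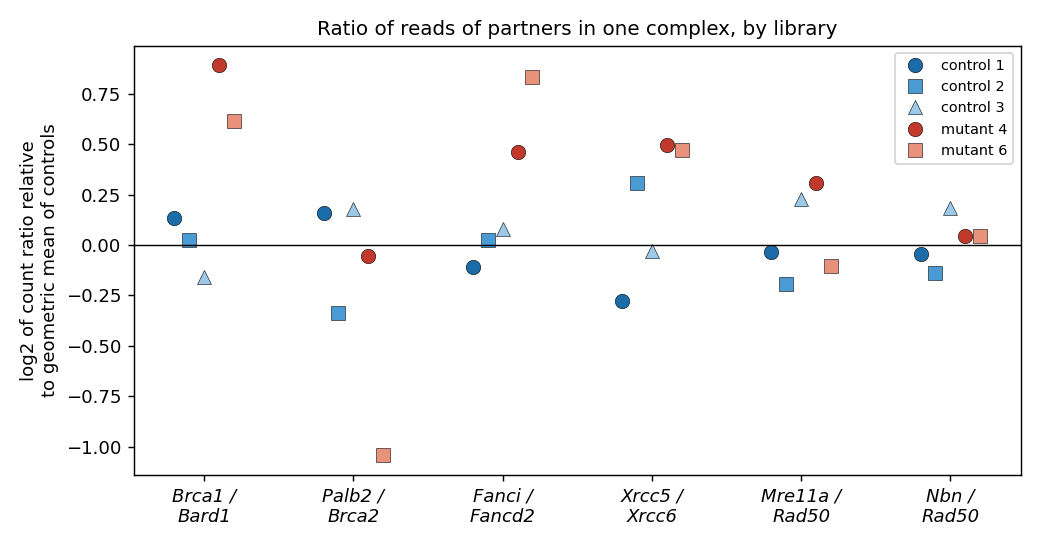
Ratio of read counts of 2 partners in each library, as log2 relative to the geometric mean of the controls. Brca1 to Bard1, Fanci to Fancd2 and Xrcc5 to Xrcc6 have both mutants above all controls; Palb2 to Brca2 and the MRN ratios overlap.

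By known regulation, 12 members were set down as peaking in dividing cells (Brca1, Brca2, Bard1, Chek1, Blm, Exo1, Fancd2, Fanci, Fanca, Rad54l, Topbp1 and H2afx). Of these, 2 fell and 8 had both mutants below all controls, with a median of -0.47. Among the other 20 members 1 fell, 11 had both mutants below all controls, and the median was -0.28. Over all genes tested, 4.17% were called lower, 6.11% were called higher and 21.8% had both mutants below all controls. The 2 lists of members were not tested against each other. For reference, 16 of 20 mitosis genes fell with a median of -0.72, and of 20 DNA replication genes 5 fell and 1, Mcm2, rose, with a median of -0.33. The members' median was thus close to that of replication genes and smaller in size than that of mitosis genes. Of 20 p53 targets, induced in the response to DNA damage, 10 rose and 10 did not pass (median 0.78).

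A further 70 genes of break sensing, signalling and repair were counted beside the members, of which 69 were tested. In this list 4 fell, 0 rose and 65 did not pass (edgeR), where 4.17% of all genes tested were called lower and 6.11% higher. At an unadjusted edgeR p under 0.05, 15 were lower and 0 higher, against 12.1% and 13.6% of all genes tested. A negative log2 fold change was found in 58 (50.8% of all genes), and the median of the list was -0.27. Gen1, a resolvase that cuts Holliday junctions, was 18.4, 18.5 and 13.6 CPM in controls and 8.58 and 9.64 CPM in mutants (-0.88 ± 0.22; edgeR adjusted p = 0.023). Dna2, a nuclease of long-range resection, was 43.8, 38.9 and 36.5 CPM against 21.2 and 29.3 CPM (-0.65 ± 0.18; edgeR adjusted p = 0.0316). Rif1, which acts with 53BP1 against resection, was 107 ± 10.4 and 75.1 ± 5.21 CPM (-0.51 ± 0.14; edgeR adjusted p = 0.0301). Clspn, the adaptor through which ATR activates CHK1, was 28.9 ± 4.99 and 18.4 ± 2.13 CPM (-0.65 ± 0.19; edgeR adjusted p = 0.0477). None of the 4 had groups that overlapped. None of these 4 calls held without control 1, where 0 genes of the list fell, and 1 fell without either mutant.

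**Figure D5:**
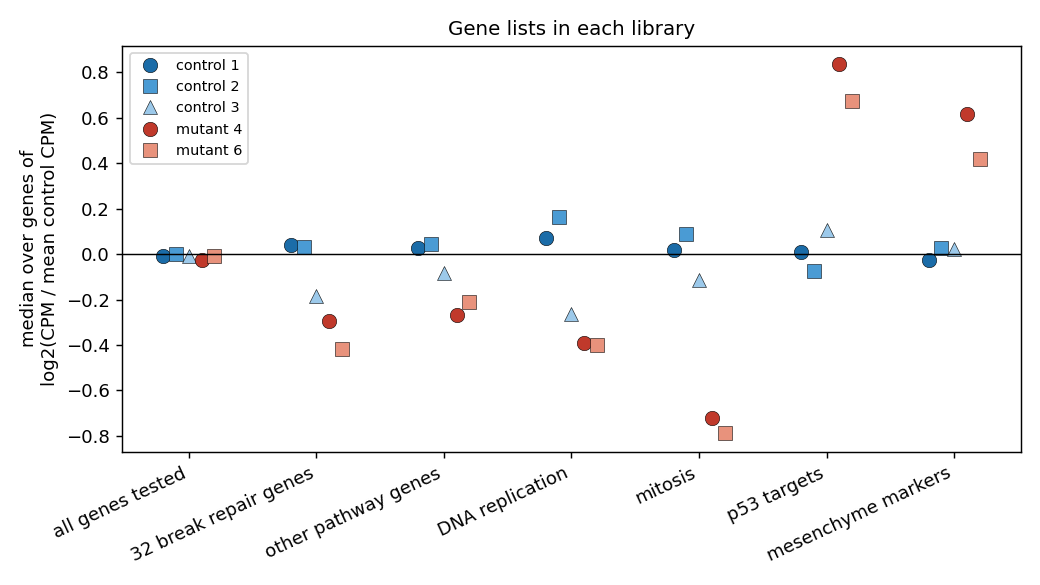
Median over the genes of a list of log2(CPM over mean control CPM), one point per library (0.5 CPM added to both). Break repair genes, other pathway genes, replication and mitosis genes lie below 0 in both mutants, p53 targets and mesenchyme markers above it, and control 3 is the lowest control in the first 4 of these lists.

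Some facts of the whole series stand beside these values. Counted with 1 row per gene, the libraries held 8730268 to 13356901 reads. For Dnmt1 the level was 115 ± 17.8 CPM in the controls and fell to 39.1 ± 1.93 CPM, and for Mki67 it was 907 ± 125 and 508 ± 3.04 CPM, so the mutant areas still held transcripts of the Ki67 gene. The 4 Y-linked genes summed to between 2710 and 3160 counts in each control but to 4 and 3 in the mutants, so sex and genotype cannot be told apart in any of these comparisons. All 10 epithelial markers were detected, with summed levels of 4156 to 4391 CPM in controls and 4027 to 4171 CPM in mutants (Krt18 rose and Cdx2 fell). Markers of mesenchyme and smooth muscle were also present, and 6 of 10 rose: their sum was 1093 to 1185 CPM in controls and 1684 to 1807 CPM in mutants. For 6 immune markers the sums were 89.7 to 136 and 233 to 252 CPM (Csf1r rose), for 6 endothelial markers 137 to 167 and 174 to 192 CPM, for 6 neural and glial markers 19.4 to 30.5 and 50.8 to 52.9 CPM (S100b rose), and for 4 erythroid markers at most 36.3 CPM in any library (Alas2 fell). No marker in these lists was at 0 in all controls or in all mutants. The summed level of the 32 members was 1262, 1266 and 1101 CPM in the controls and 978 and 950.0 CPM in the mutants; the part of these other cells in the difference was not tested.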

How the data were processed

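One table deposited by the authors holds unnormalized counts for 28644 RefSeq transcripts, and another their FPKM. The submitters' processing notes name mm9 and edgeR. Captured RNA was amplified before library preparation, per the labels' protocols. The aligner, the counter and the use of strand were not given in the sources used here. Each symbol was represented by its row with the highest mean count. Members and lists were chosen with earlier results of these data known. The named genes are all members by role and every other pathway gene called; 1 further gene that the rule names is not reported here.

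Counts were tested in R 4.3.3 with edgeR 4.0.16 (quasi-likelihood F-test, filterByExpr, TMM, no covariate, 3 residual degrees of freedom), checked on simulated counts, with Benjamini-Hochberg adjustment over 19353 rows of 14572 genes and a threshold of 0.05. SE is the absolute log2 fold change over the square root of F. CPM are scaled to all rows, in which transcripts of a gene repeat reads. Alternatives used DESeq2 1.42.0 and limma 3.58.1, the latter for voom and for log2(FPKM + 1) or log2(FPKM + 0.1); fold changes on FPKM are on that scale and understate changes of low genes. Replicates differed beyond sampling noise (chi-square per gene 9.94 to 25.2). Of the members, 9 overlap another protein-coding gene model in RefSeq GRCm38.p6 and 3 have several rows.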

Additional observations from a re-analysis of the deposited data

How the results depend on the processing

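No paired analysis was possible because controls are numbered 1, 2 and 3 and mutants 4 and 6, so the groups share no number. The number of members called lower, 3, was 6 with no filter on low counts and 1 on FPKM with pseudocount 1, pseudocount 0.1 or a mean of at least 1; with 1 library left out it ranged from 1 to 6. No member was called higher under any of the 15 settings, and 25 to 29 members had a negative log2 fold change. On FPKM all genes stood at -0.14 in control 3 (median log2 ratio to the control mean) and at -0.08 and -0.05 in mutants 4 and 6. The members stood at -0.27 in control 3, beside -0.28 in both mutants. The number with both mutants below every control, 19, was 6 on FPKM and 19 to 24 with 1 library left out. No share of all genes was counted for these settings, and groups separate more easily with fewer libraries. These counts and the partner ratios on FPKM were added after seeing the data. The other pathway genes called lower, 4, were 0 on FPKM at each setting, and 0 to 5 with 1 library left out. With 1 library left out, signs reversed for Mre11a (-0.55 to 0.099) and Xrcc2 (-1.08 to 0.20) without mutant 6, Rbbp8 (-0.31 to 0.054) without control 3, and Prkdc (-0.23 to 0.029) without control 1 (0.0040) or mutant 6. Rad51c was -0.058 on FPKM with pseudocount 1, -0.083 with 0.1 and -0.058 at a mean of at least 1; none of these passed the test. The cause was not tested. With 1 mutant left, that library is assumed to vary as the controls do. Depth limits the members under 100 counts a library, Xrcc2 and Rad51c above all.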
